A study of Mus musculus with 4 samples.

Results

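The genes described here are Yap1 and Wwtr1, which encode the co-activators Yap and Taz, the 4 Tead transcription factor genes they work with, and 4 genes known as their targets, Ccn2 (also called Ctgf), Ccn1 (Cyr61), Ankrd1 and Amotl2. Members were chosen by name from probe sets to which the platform annotation gives a single symbol, with the probe set of highest mean over the 4 arrays kept for each gene. All 10 were found, among the 19938 genes measured on the array. Tead1 had 2 probe sets and each of the other 9 genes had 1.

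The samples were E14 mouse embryonic stem cells of an inbred strain, whose RNA was hybridised to Affymetrix MoGene 1.0 ST arrays. The control group and the Kdm2b knockdown group have 2 arrays each. Kdm2b encodes a histone demethylase that binds unmethylated CpG-rich DNA and belongs to a variant of Polycomb repressive complex 1, and the series asks how the stem cell state depends on it. Both groups were kept in 15% serum and leukemia inhibitory factor (1000 units/ml) on gelatin-coated plates. Both received a lentivirus (10 MOI) and, from 48 h on, puromycin (2 µg/ml) to remove uninfected cells. Neither the control vector nor the knockdown sequence is named in the labels, so whether more than 1 construct was used is not known here. Nor is it stated that replicates were separate cultures, and the p-values reflect the spread of these arrays, which may be technical.

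The Hippo pathway is a kinase cascade that senses cell contact, shape and tension. When the kinases are active, Lats kinases phosphorylate Yap and Taz, which then stay in the cytoplasm. When they are inactive, Yap and Taz enter the nucleus and bind Tead factors, which carry the DNA-binding domain, and target genes such as Ccn2 and Ccn1 are transcribed. In the early embryo Yap and Tead4 are known for directing the outer cells to trophectoderm. The arrays measure RNA alone, so where Yap and Taz lie in the cell was not measured.

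Kdm2b, the targeted gene, had log2 values of 10.74 and 10.64 with the control vector and fell to 9.20 and 9.19 after knockdown, 2.82-fold lower (limma adjusted p = 0.0039). Arrays of a group correlated with r = 0.9963 (control) and 0.9966 (knockdown) across probe sets. The median log2 change of all genes was 0.03. All 10 embryonic stem cell markers examined, among them Pou5f1, Sox2 and Nanog, lay above 8.52, the median of all values of the table. Of these, 0 were called higher or lower, and 3 had an unadjusted p under 0.05 in limma, against 5941 of all 19938 genes. Klf4 came closest, with a log2 change of 0.30 (SE 0.0729, limma adjusted p = 0.0514). Of 10 alternative fits with all 4 arrays, 4 called it. These were quantile normalization (limma adjusted p = 0.042), dim genes removed (0.0376), a prior with an intensity trend (0.0396) and a threshold of 0.1. It was not called under centring on array medians (0.0813).

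Of the 10 genes, Tead3, which rose, was the single one to pass the test after Kdm2b knockdown, and 0 members fell. A gene is called higher or lower here at an adjusted p under 0.05 in limma, with adjustment over all 19938 genes, and by that rule 12.2% of all genes were called, 5.00% higher and 7.19% lower. The higher genes made up 41.0% of the calls as deposited and 31.1% under centring on array medians. The share of members called, 1 of 10, was thus near the background. The median log2 change of the members was 0.02 as deposited and -0.02 under centring on array medians. Both knockdown arrays lay above both control arrays for 2 members, Tead3 and Yap1 (33.8% of all genes), and below them for 2, Tead2 and Tead4 (25.0% of all genes). The groups thus did not overlap for 4 of 10 members, against 58.8% of all genes. With 2 arrays a group, an exact two-sided permutation test of a single value cannot give a p below 0.333.

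**Figure D1:**
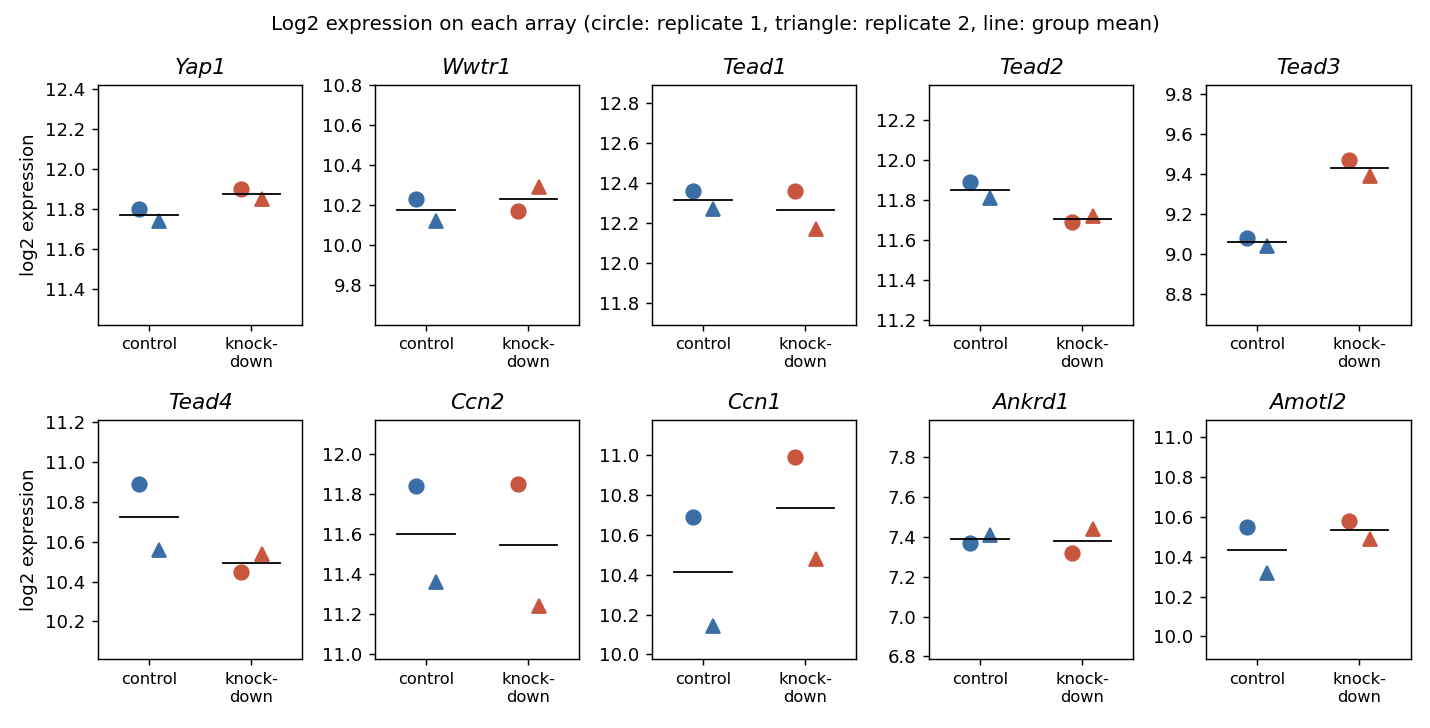
Log2 expression of each of the 10 genes (vertical axis, spanning 1.2 log2 units in every panel) on the control arrays (blue) and the knockdown arrays (red), with circles for replicate 1, triangles for replicate 2 and a line at each group's mean. Tead3 stands higher on both knockdown arrays, at 9.47 and 9.39 against 9.08 and 9.04, while Ccn2 and Ccn1 stand higher in replicate 1 than in replicate 2 of either group.

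Among the co-activators, Yap1 was at log2 values of 11.80 and 11.74 in control cells (11.77 ± 0.0424, SD, n = 2) against 11.90 and 11.85 in knockdown cells (11.875 ± 0.0354, SD, n = 2). The knockdown arrays were the higher ones, by a small margin. The log2 change of 0.105 (SE 0.0635, limma adjusted p = 0.323) did not pass the threshold, and its 95% interval, from limma's moderated standard error, ran from 0.965-fold to 1.20-fold of the control level. Wwtr1 was at 10.23 and 10.12 in control cells against 10.17 and 10.29 in knockdown cells. Its arrays overlapped, and the log2 change was 0.06 (SE 0.0759, limma adjusted p = 0.671), with a 95% interval of 0.913-fold to 1.18-fold. The difference between Yap1 and Wwtr1 on one array was 1.57 and 1.62 in control against 1.73 and 1.56 in knockdown cells, so these groups overlapped.

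Of the 4 Tead genes, 1 was called, and their log2 changes were of either sign. Tead3 was at log2 values of 9.08 and 9.04 in control cells (9.06 ± 0.0283, SD, n = 2) against 9.47 and 9.39 in knockdown cells (9.43 ± 0.0566, SD, n = 2). The lowest knockdown array was above the highest control array by more than either group's spread. Tead3 rose 1.29-fold, with a 95% interval of 1.16-fold to 1.44-fold (log2 change 0.37, SE 0.0648, limma adjusted p = 0.0222). It ranked 1186 of 19938 genes by p-value, so the change was one of many of its kind. In bulk RNA a higher level per cell and more cells that express the gene cannot be told apart. The log2 change was 0.39 without control replicate 1 (adjusted p = 0.258), 0.35 without control replicate 2 (0.207), 0.33 without knockdown replicate 1 (0.24) and 0.41 when the other knockdown array was left out (0.196), so the direction held and the call was lost each time. In those fits limma called 0 of all 19938 genes, with 3495 to 4215 at an unadjusted p under 0.05, so every call given here was lost in the same way. Tead3 was also not called when all probe sets were tested, named or not (adjusted p = 0.0908), a test in which limma called 0 of 35557 probe sets, with 7742 at an unadjusted p under 0.05.

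Tead2, known as the Tead gene of the early embryo and neural precursors, was at 11.89 and 11.81 in control cells against 11.69 and 11.72 in knockdown cells. Both knockdown arrays were below both controls, with a log2 change of -0.145 (SE 0.0643, limma adjusted p = 0.198) and a 95% interval of 0.811-fold to 1.01-fold. Tead4, the family member required for trophectoderm in the mouse embryo, was at 10.89 and 10.56 in control cells against 10.45 and 10.54 in knockdown cells. The groups were parted by 0.02 between control replicate 2 and knockdown replicate 2, and the log2 change of -0.23 (SE 0.116, limma adjusted p = 0.246) lay between -0.395 and -0.065 when single arrays were left out. Tead1, a widely expressed member of the family, was at 12.36 and 12.27 in control cells against 12.36 and 12.17 in knockdown cells, and these groups overlapped. Its kept probe set had a log2 change of -0.05 (SE 0.0852, limma adjusted p = 0.737). Its other probe set, at 12.26 and 12.22 in control against 12.19 and 12.02 in knockdown cells, had a log2 change of -0.135.

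**Figure D2:**
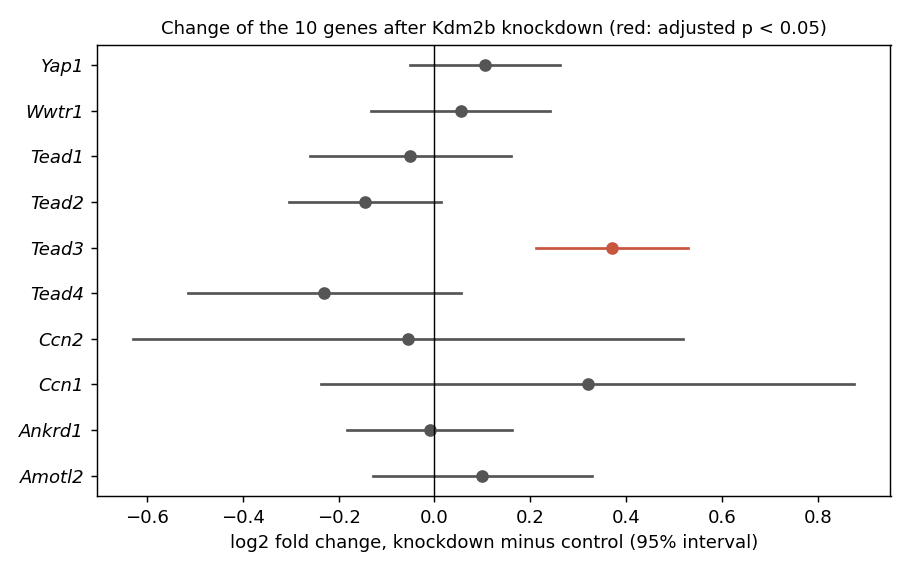
Log2 fold change of each of the 10 genes, knockdown minus control (horizontal axis), as a point with its 95% interval from limma's moderated standard error, with the gene called at an adjusted p under 0.05 in red. Tead3, at 0.37, has an interval above 0, and the widest intervals are those of Ccn1 and Ccn2.

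Differences were also taken between genes on the same array, where a shift common to all values of the array cancels, though other forms of scaling do not. Tead3 minus Tead2 was -2.81 and -2.77 log2 units in control cells and -2.22 and -2.33 after knockdown, a shift of 0.515 toward Tead3. Tead3 minus Tead4 went from -1.81 and -1.52 to -0.98 and -1.15, a shift of 0.60. Tead3 minus Tead1 went from -3.28 and -3.23 to -2.89 and -2.78, a shift of 0.42. In each case the groups did not overlap. These pairs were among 7 pairs compared, chosen after the values were seen, and each of the 3 gave the smallest exact two-sided permutation p that the arrays allow (p = 0.333, adjusted over the 7 pairs 0.389). The values before the shift are differences between probe sets and do not give the ratio of the transcripts.

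Tead factors are known to bind DNA at the core letters GGAATG, or CATTCC on the opposite strand, and the upstream sequence of Tead3 holds them. In the RefSeq promoter table (build GRCm38.p6), 7 of the 10 genes have a window, and the 250 bases before each start were searched on both strands. Tead3 has 3 starts in the table. The sequence before the outermost start, at chr17:28350806-28351055 on the minus strand, is shown because Tead3 is the member that was called. It is written 5′ to 3′ with the matching letters in capitals, and has a copy 182 to 177 bases before the start.
Tead3 upstream: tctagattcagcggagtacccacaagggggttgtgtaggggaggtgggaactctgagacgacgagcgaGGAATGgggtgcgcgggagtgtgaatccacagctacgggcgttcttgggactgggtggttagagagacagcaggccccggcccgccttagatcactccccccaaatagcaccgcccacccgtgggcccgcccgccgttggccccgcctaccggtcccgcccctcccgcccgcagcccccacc
Before the next start, which lies inside the annotated gene, there are 2 copies on the opposite strand, 3 bases apart, within chr17:28350706-28350735.
Tead3 paired copies: tccggccgggctCATTCCgtaCATTCCggc
The window before the third start has 0 copies. At least 1 copy was found for 6 of the 7 genes, Tead2 being the exception, and in 8 of their 10 windows, the overlapping windows of Wwtr1 sharing 1 copy. Over the whole table, 12.6% of the 32851 windows of this length and 14.4% of the 27025 genes hold at least 1 copy. A match describes the letters and is not evidence that a factor binds there.

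The sequence before the starts also differed in CpG content, the feature that the zinc finger of Kdm2b recognises. The ratio of observed to expected CpG in the 250 bases was 1.25 for Yap1, 0.765 for the outer start of Wwtr1, 0.701 for the outermost start of Tead3, 0.425 for Tead2, 0.801 for Ccn1, 0.701 for Amotl2 and 0.362 for Ankrd1. The median over all windows was 0.373 and the upper quartile 0.723. The inner starts of Tead3 had ratios of 0.919 and 0.618 and that of Wwtr1 had 0.679, and the single windows of Yap1 and Amotl2 lie before starts inside the annotated gene. Whether Kdm2b binds at any of these starts was not measured here.

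The 4 target genes did not pass the threshold. Ccn2, a secreted matricellular protein of the CCN family and a standard readout of Yap activity, was at log2 values of 11.84 and 11.36 in control cells (11.60 ± 0.339, SD, n = 2) against 11.85 and 11.24 in knockdown cells (11.545 ± 0.431, SD, n = 2). The groups lay on top of each other, and the arrays within a group were far apart. The log2 change was -0.055 (SE 0.234, limma adjusted p = 0.898), with a 95% interval of 0.647-fold to 1.43-fold, and it lay between -0.36 and 0.25 when single arrays were left out. Ccn1, a related secreted protein and also a standard Yap target, was at 10.69 and 10.14 in control cells (10.415 ± 0.389, SD, n = 2) against 10.99 and 10.48 in knockdown cells (10.735 ± 0.361, SD, n = 2). Its knockdown arrays tended higher but overlapped the controls, with a log2 change of 0.32 (SE 0.226, limma adjusted p = 0.393) and a 95% interval of 0.849-fold to 1.84-fold. When single arrays were left out it lay between 0.045 and 0.595.

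Ankrd1, an ankyrin repeat protein best known from heart and muscle, was at 7.37 and 7.41 in control cells against 7.32 and 7.44 in knockdown cells. These values lie under the median of the table, the arrays overlapped, and the log2 change was -0.01 (SE 0.0698, limma adjusted p = 0.939). Amotl2, an angiomotin that binds Yap and is itself a target gene, was at 10.55 and 10.32 in control cells against 10.58 and 10.49 in knockdown cells. Those groups overlapped, with a log2 change of 0.10 (SE 0.0932, limma adjusted p = 0.518) and a 95% interval of 0.914-fold to 1.26-fold.

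The upstream sequences of the targets are shown because these genes stand for Tead-dependent transcription in this set. That of Ccn1, at chr3:145649986-145650235 on the minus strand, has 1 copy of the letters on the opposite strand, 103 to 98 bases before the start. That of Ankrd1, at chr19:36119845-36120094 on the minus strand, has 2 copies on the gene's strand, at 210 to 205 and 123 to 118 bases before the start, a number reached by 1.02% of all windows. The copy of Amotl2 lies 65 to 60 bases before a start inside the annotated gene, and is shown with its surroundings, chr9:102717727-102717756 on the plus strand.
Ccn1 upstream: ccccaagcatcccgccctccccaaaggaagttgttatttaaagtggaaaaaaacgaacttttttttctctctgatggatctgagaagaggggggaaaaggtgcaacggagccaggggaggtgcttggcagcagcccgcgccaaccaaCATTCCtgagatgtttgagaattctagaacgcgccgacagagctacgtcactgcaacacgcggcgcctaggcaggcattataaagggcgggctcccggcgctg
Ankrd1 upstream: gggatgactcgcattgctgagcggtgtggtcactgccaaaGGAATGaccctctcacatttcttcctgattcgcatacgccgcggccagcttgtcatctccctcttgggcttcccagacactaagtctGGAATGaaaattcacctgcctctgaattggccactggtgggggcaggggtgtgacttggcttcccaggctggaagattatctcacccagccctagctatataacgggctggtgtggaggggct
Amotl2 copy: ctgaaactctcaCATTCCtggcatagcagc
Ankrd1, with 2 copies, had a log2 change of -0.01, and Ccn1 and Amotl2, with 1 each, had changes of 0.32 and 0.10. None of these passed the threshold, and a relation between copies and change was not tested.

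Ccn2 and Ccn1 differed between the replicates more than between the groups, and in the same direction. Replicate 1 was above replicate 2 by 0.48 for Ccn2 and 0.55 for Ccn1 in control cells, and by 0.61 and 0.51 in knockdown cells. These differences were as large in size as, or larger than, those of at least 99.5% of all genes in each group. Only 5 of the 19938 genes had replicate 1 higher by at least 0.48 in both groups, and 3 had replicate 2 higher by as much. The 5 genes were Ccn2, Ccn1, the immediate early gene Egr1 (0.50 and 1.05), Rsph4a and Tdpoz3, all but the first pair named after their values were seen. Since the limit was set by the pair itself, the count describes how unusual the pair is and tests nothing. Across all genes the replicate differences of the 2 groups correlated with r = 0.0954, genes not being independent replicates. The other members did not share the pattern at that size. Tead4 differed by 0.33 in control cells and -0.09 in knockdown cells, Amotl2 by 0.23 and 0.09, and Ankrd1 by -0.04 and -0.12. Whether cultures or arrays with the same number were handled together is not stated in the labels.

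**Figure D3:**
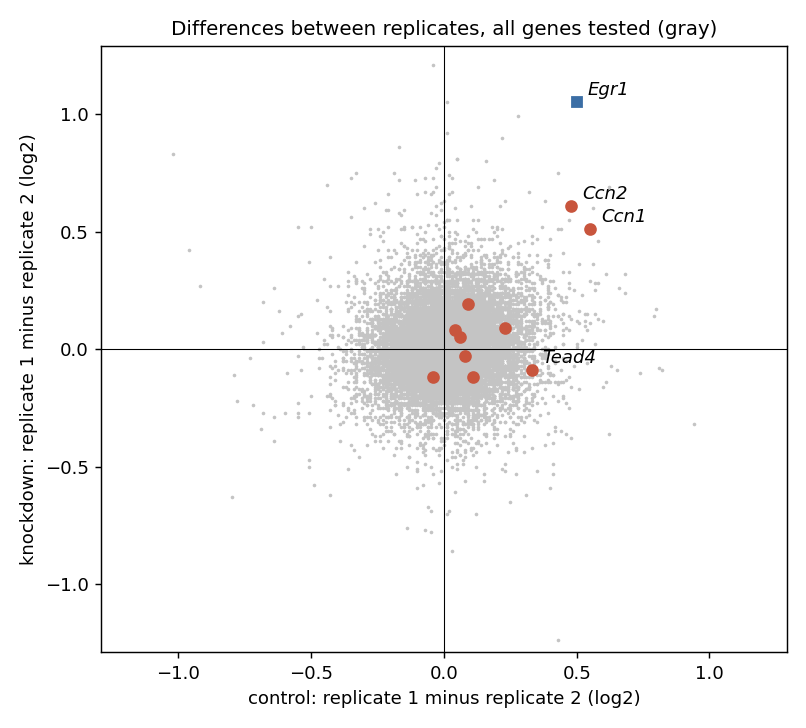
Log2 expression of replicate 1 minus replicate 2 in control cells (horizontal axis) against the same difference in knockdown cells (vertical axis) for all 19938 genes (gray), with the 10 members in red and Egr1 as a blue square. Ccn2 (0.48, 0.61) and Ccn1 (0.55, 0.51) stand apart at the upper right, and the other 8 members lie within the cloud.

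The difference between Ccn1 and Ccn2 on each array varied less between replicates than either gene did. Ccn1 minus Ccn2 was -1.15 and -1.22 on control arrays (-1.185 ± 0.0495, SD, n = 2), and it reached -0.86 and -0.76 on knockdown arrays (-0.81 ± 0.0707, SD, n = 2). Both knockdown arrays were above both controls, a shift of 0.375 log2 units toward Ccn1, with an exact two-sided permutation p of 0.333, the smallest the arrays allow (0.389 adjusted over the 7 pairs). The difference was computed after the shared pattern was seen, and with neither gene past the threshold it describes these 4 arrays only.

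Other genes of the pathway were read against the 12.2% of all genes called. Counts at an unadjusted p under 0.05 in limma were read against 5941 of all 19938 genes. Of 6 core kinase and scaffold genes measured, 0 were higher and 0 lower, with 2 at an unadjusted p under 0.05 in limma. These were the scaffold Sav1, at 10.12 and 10.15 in control against 10.43 and 10.36 in knockdown cells (log2 change 0.26, SE 0.0633, limma adjusted p = 0.0518), and Mob1b, which activates Lats kinases (0.25, SE 0.0607, adjusted p = 0.0514). Both lay just outside the threshold. They were called after quantile normalization (adjusted p = 0.0396 for each) and with dim genes removed (0.0358 and 0.0349), and not under centring on array medians (0.077 and 0.0858). The median over the 6 was 0.13, against 0.03 for all genes.

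Of 20 upstream regulators measured, 2 were higher, 1 lower and 17 neither, with a median log2 change of 0.08. An unadjusted p under 0.05 in limma was found for 9 of the 20. Amot, an angiomotin that binds and holds back Yap, was at 8.05 and 7.98 in control cells against 8.47 and 8.94 in knockdown cells, a rise of 0.69 (SE 0.15, limma adjusted p = 0.0393). The value was 0.455 without knockdown replicate 2, and the mean of the 4 arrays, 8.36, lies under the median of the table. Taok2, a kinase of the group that activates the Hippo kinases, rose by 0.55 (SE 0.127, limma adjusted p = 0.0449), from 10.01 and 10.31 to 10.83 and 10.59. Map4k4, a kinase that can phosphorylate Lats, fell by 0.67 (SE 0.108, limma adjusted p = 0.0182), from 11.78 and 11.70 to 11.22 and 10.92. Under centring on array medians the list had 2 higher and 2 lower.

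Of the 3 angiomotin genes, 1 was called. Beside the rise of Amot, Amotl1 was at 10.00 and 9.84 in control cells against 9.76 and 9.63 in knockdown cells (log2 change -0.225, SE 0.0844) and did not pass the threshold, nor did Amotl2. Amot minus Amotl1 on one array was -1.95 and -1.86 in control cells and -1.29 and -0.69 in knockdown cells, a shift of 0.915. Amot minus Amotl2 shifted by 0.59, from -2.50 and -2.34 to -2.11 and -1.55. The groups did not overlap in either case, and both gave an exact two-sided permutation p of 0.333 (0.389 adjusted over the 7 pairs), the smallest possible.

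Of the 4 Vgll genes, whose products compete with Yap and Taz for Tead factors, 0 were higher and 0 lower, with 1 at an unadjusted p under 0.05 in limma. Vgll4, a known repressor of Tead activity, had a log2 change of 0.26 (SE 0.0763, limma adjusted p = 0.0818), and Vgll3 one of 0.19 (SE 0.105, adjusted p = 0.285), which lay between 0.045 and 0.335 when single arrays were left out.

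Further genes known as Yap and Tead targets in other cells moved in either direction. Among 18 measured 3 passed as higher, 2 as lower and 13 as neither, with a median of 0.09. An unadjusted p under 0.05 in limma was found for 9 of the 18. Nt5e, a cell-surface nucleotidase, rose by 0.97 (SE 0.126, limma adjusted p = 0.0118), from 8.10 on both control arrays to 8.88 and 9.26. Fjx1, a secreted protein related to the fly gene four-jointed, rose by 0.82 (SE 0.0617, limma adjusted p = 0.00536), from 8.58 and 8.63 to 9.41 and 9.44. The growth factor gene Tgfb2 rose by 0.35 (SE 0.0606), at values under the median of the table. Dock5, an activator of Rac, fell by 0.395 (SE 0.0848), and Nuak2, a kinase named here after its value was seen, fell by 0.28 (SE 0.0629). Lats2, which is both a kinase of the cascade and a target gene, had a log2 change of 0.155 (SE 0.0651) and was not called. Under that centring 3 were higher and 3 lower.

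Serum response factor (Srf), its cofactors and genes it is known to control, mainly of the actin cytoskeleton, were also examined. Ccn2, Ccn1 and Ankrd1 are known targets of Srf as well. Of 16 genes measured from this list, Srf, Mrtfa and Mrtfb among them, 0 were higher, 5 lower and 11 neither. Their median was -0.125, and 7.19% of all genes were lower. An unadjusted p under 0.05 in limma was found for 6 of the 16. Cnn2, a calponin that binds actin, fell by 0.785 (SE 0.0667, limma adjusted p = 0.00556), from 12.00 and 12.10 to 11.25 and 11.28. The tropomyosin gene Tpm1 fell by 0.655 (SE 0.0638, limma adjusted p = 0.00681), from 11.58 and 11.51 to 10.87 and 10.91. Cnn1 fell by 0.47 (SE 0.0616), the myosin light chain gene Myl9 by 0.455 (SE 0.1), and the smooth muscle actin gene Acta2, named after its value was seen, by 0.41 (SE 0.0918). Srf itself had a log2 change of -0.085 (SE 0.0643), its cofactor Mrtfa one of -0.07 and Mrtfb one of 0.14, and none of these passed. The secreted protein gene Thbs1 had a log2 change of 0.38 (SE 0.108) that did not pass.

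**Figure D4:**
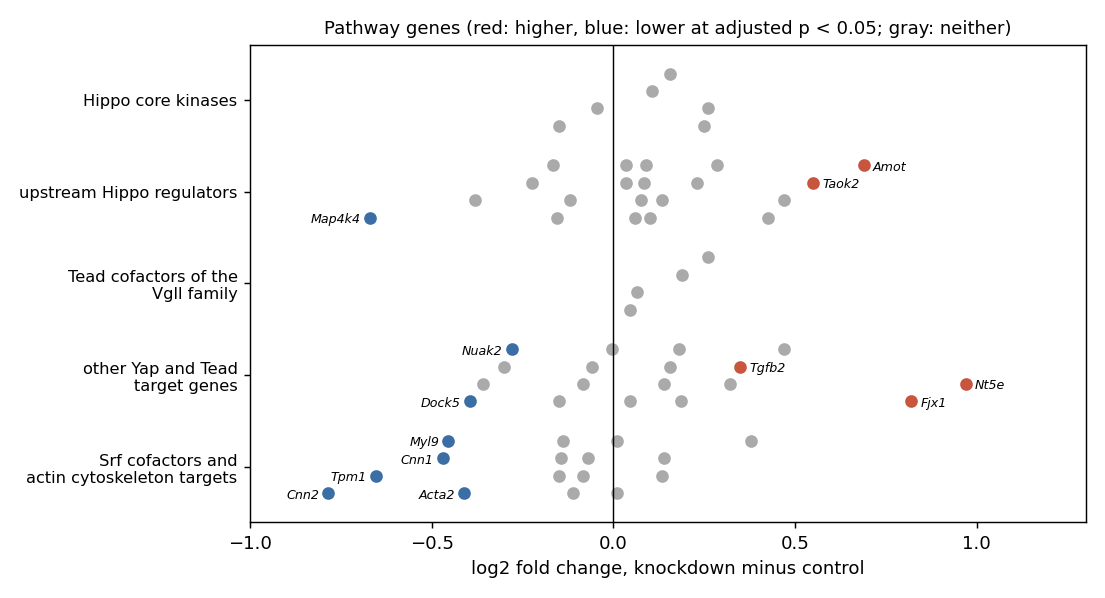
Log2 fold change, knockdown minus control (horizontal axis), of the genes of 5 pathway lists, 1 point per gene (Lats2 and Ptpn14 stand on 2 lists), with genes called higher in red, called lower in blue and neither in gray. Called genes of the actin list all lie to the left, from Cnn2 at -0.785 to Acta2 at -0.41, and those of the upstream regulators and targets lie on both sides.

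Markers of other cell types moved with the knockdown in part. Of all genes, 5.00% were called higher and 7.19% lower. Of 10 primitive endoderm markers, 5 were higher and 0 lower, led by Gata6 (2.12, SE 0.257, limma adjusted p = 0.0103). After quantile normalization 4 were higher, and under centring on array medians 6. Their summed level was 12.94 to 13.33 in control cells and 13.96 to 14.38 after knockdown (log2 of the sum of linear values). This sum largely reflects Srgn, Gata6 and Lama1. Srgn differed between the control arrays, at 11.66 and 10.85. Of 11 fibroblast markers, 1 was higher (Twist1) and 1 lower (Pdgfrb), and the median log2 change was 0.065. Their summed level was 14.07 to 14.09 in control and 13.87 to 13.95 in knockdown cells. That sum largely reflects Fn1, at 13.71 and 13.68 in control against 13.52 and 13.42 in knockdown cells. By their means over the arrays, Lum, Dcn, S100a4 and Postn lay under the median of the table. Fn1, Thy1, Col1a1, Pdgfrb, Col1a2, Col3a1 and Twist1 lay above it. Of 10 trophectoderm markers, 3 were higher (Eomes, Krt8 and Cdx2) and 1 lower (Tfap2c), with summed levels of 12.76 to 12.84 and 12.92 to 12.93. Cdx2, which Tead4 is known to activate in the embryo, rose by 0.35 (SE 0.0654), at values under the median of the table, while Gata3, known as a further target of Tead4, had a log2 change of -0.02. The part of these cell types in the change of Tead3 and of the pathway genes was not tested.

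The genes whose profile over the 4 arrays was closest to that of Tead3, the member with the largest change, were Sirt7, Tigd5 and Zfp654. Their root mean square distances between gene-centred log2 profiles were 0.00433, 0.00829 and 0.0109. With 1811 genes within 0.1 of Tead3, a close profile over 4 arrays is common.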

How the data were processed

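The authors deposited 1 table of log2 values with 2 decimals, covering 35557 probe sets on 4 arrays. The submitters' processing notes name Affymetrix Expression Console, with no version. Background step and summary method are not given. The log2 scale was read from the values (3.12 to 14.74). They are not centred per gene, with array medians of 8.49 and 8.51 (control) and 8.55 and 8.53 (knockdown). The scaling between arrays is unknown. Precision is limited by the number of arrays.

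Of the probe sets, 21789 had 1 gene symbol in the platform annotation, 1621 several and 12147 no entry. RefSeq, matched by Entrez ID for 21698, changed 0 symbols. The groups were compared by limma 3.58.1 under R 4.3.3 (lmFit and eBayes at default settings, no covariates, two-sided tests, Benjamini-Hochberg adjustment across 19938 genes), and the procedure was tested on simulated data. Groups and replicate numbers came from the sample titles. Members, lists and tests were chosen with earlier results of these data known. The text names all members and Kdm2b, up to 4 called genes with the largest change per pathway list (2 as values where none was called), the markers the cell type check needs and the 3 closest profiles to the member with the largest change. Stk3, Actg1 and Fbn1 were listed but are not among the genes analysed here, and Mrtfa and Mrtfb were matched through synonyms. Promoter windows came from RefSeq and were searched with Python 3.11.15. Tead1, Tead4 and Ccn2 had none. Alternatives tried were a replicate block, leaving out each array, quantile normalization, median centring, a filter on dim genes, other probe set choices, other priors and an adjusted p under 0.1.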

Additional observations from a re-analysis of the deposited data

How the results depend on the processing

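In the alternatives with all 4 arrays that alter the values (quantile normalization, median centring, mean of probe sets) 0 members changed direction, the others leaving each log2 change as it is. Tead3 stayed called except with a replicate block (adjusted p = 0.127) and when all probe sets, named or not, were tested (0.0908). Those fits called 0 genes and 0 members, with 5411 of 19938 genes and 2 members, and 7742 of 35557 probe sets and 1 member, at an unadjusted p under 0.05 in limma. With the block, Ccn1 had the same limma adjusted p (0.127) as Tead3 and Kdm2b. Other named genes, Nt5e, Fjx1, Cnn2 and Krt8 among them, shared that adjusted value, so it does not rank these genes. The labels give both groups the numbers 1 and 2, and deviations of same-numbered arrays correlated at 0.0954. Whether they were handled together is not stated, so the block was kept as an alternative. With each array left out, 0 genes and 0 members were called, with 3495 to 4215 genes and 1 to 2 members at an unadjusted p under 0.05. Those fits have 1 residual degree of freedom. They gave 0.045 to 0.595 for Ccn1. They also gave -0.36 to 0.25 for Ccn2, -0.005 to 0.115 for Wwtr1, -0.145 to 0.045 for Tead1, -0.07 to 0.05 for Ankrd1 and -0.015 to 0.215 for Amotl2, all of which changed sign. At an adjusted p under 0.1, 4156 genes were called, and still 1 member. With dim genes removed Ankrd1 was not tested.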
